A study of Mus musculus with 26 samples.

Results

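Ccr1, Ccr2, Ccr3, Ccr9, Cxcr6 and Xcr1 are chemokine receptor genes that lie together on mouse chromosome 9, close to Ackr2. They were taken by name as the listed receptor genes near Ackr2. The rule itself uses no measured value, but earlier results of these data were known when it was chosen. All 6 were found in each of the 3 count tables, which list 54375 genes for monocytes, 54863 for SPMs and 57186 for lung macrophages. RNA was sequenced from 26 samples of cells sorted from untreated female mice, either WT C57BL/6J bought in or ACKR2-/-, homozygous for the loss of Ackr2. The ACKR2-/- mice were bred as a separate homozygous colony, so the genotypes were not littermates, and genotype and colony cannot be told apart. Mice were 8 to 10 weeks old unless the study states otherwise. The cells were Ly6C+ bone marrow monocytes (4 WT and 4 ACKR2-/- samples), SPMs, the small peritoneal macrophages, sorted as F4/80 mid MHCII+ cells (4 and 4), and MHCII negative macrophages of the lung (5 and 5). Each monocyte or SPM sample pooled cells of 5 mice, and how many mice gave a lung sample is not stated in the sources used here. Where samples may come from the same sort, p-values measure only the spread between these samples.

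Chemokine receptors sit in the cell membrane, bind small secreted chemokines and couple to inhibitory G proteins, which steers the cell towards the source. Ccr2, the receptor for Ccl2, Ccl7 and Ccl12, lets Ly6C+ monocytes leave the bone marrow, and Ccr1, which binds Ccl3, Ccl5, Ccl6 and Ccl9, is carried by many myeloid cells. Cxcr6 binds Cxcl16 and is best known on activated T cells and innate lymphoid cells, Xcr1 binds Xcl1 and marks the cross-presenting dendritic cells called cDC1, Ccr3 is the eotaxin receptor of eosinophils, and Ccr9 draws T cells to Ccl25 in the thymus and small intestine. ACKR2, the protein of the deleted gene, also binds inflammatory CC chemokines but removes them without the usual signal.

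Between 12781144 and 35400034 reads per sample were counted on genes. The sorted cells carried the markers of their labels. Ly6c2, a monocyte surface protein, had 3271 to 6461 CPM (reads scaled to the size of the library) in monocytes, and C1qa, a complement gene of macrophages, had 750 to 2031 CPM in SPMs and 65.0 to 2749 CPM in lung macrophages. Genes on the marker lists of other cells were read too. Sftpc, a gene of lung epithelium, had 181 to 10145 CPM in lung macrophages. S100a8, listed as a neutrophil marker, had 3798 to 22329 CPM in monocytes, from which Ly6G+ cells were gated out. Ly6g itself had 2.68 to 18.2 CPM there, and whether the S100a8 reads came from neutrophils or from the monocytes themselves was not tested. Ackr2 itself had 0 reads in all ACKR2-/- samples of monocytes and SPMs, 5 to 9 reads in WT SPMs and at most 2 reads in WT monocytes. In lung macrophages 4 WT samples had 150 to 469 reads on Ackr2 and the ACKR2-/- samples 7 to 50, but the library labelled WT replicate 5 had 0. Another lung library, WT replicate 3, stood apart with 534 CPM of the dendritic cell gene Cd209a against 0.907 to 22.2 CPM in the other 9. Lung results are therefore also given without these 2 libraries. ACKR2-/- lung replicate 4, which was kept, was like the library labelled WT replicate 5 in some markers. Sftpc had 181 CPM in it and 207 CPM in that WT library, against 3319 to 10145 CPM in the other lung libraries. Epithelial markers summed to 231 and 369 CPM against 5681 to 16669 CPM, and Cd209a had 1.21 and 0.907 CPM. Among SPMs, WT replicate 1 stood apart in Ccr1 and Ccr2.

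The cluster lies between 1780 and 2204 kb beyond the start of Ackr2 on GRCm38 (starts are the lower coordinates of the gene models). In order, Ccr9 lies at chr9:123678439-123784330 on the plus strand, Cxcr6 at chr9:123806475-123811760 on the plus strand, Xcr1 at chr9:123852315-123862029 on the minus strand, Ccr1 at chr9:123962124-123968692 on the minus strand, Ccr3 at chr9:124021972-124031689 and Ccr2 at chr9:124101950-124113557, both on the plus strand. All 6 are protein-coding. The exons of the Ccr9 model share 1932 bases with AC165425.1 on the opposite strand and 269 bases with the lincRNA Gm17200 on its own strand, so reads on Ccr9 may belong to these, and Cxcr6 lies within the span of Fyco1 without sharing exonic bases. All 6 genes matched a RefSeq promoter of GRCm38.p6, which covers 250 bases before the RefSeq start and 50 from it. That start can differ from the start of the gene model given above. The Ccr9 promoter, at chr9:123766961-123767260, lies inside the Ccr9 model, and most of the Ccr2 promoter lies inside the Ccr2 model. The promoters of the 3 genes whose monocyte values did not overlap between the genotypes, and that of Ccr2, the member with the most reads, are shown from 5′ to 3′ on the strand of the gene. Capitals mark matches, on either strand, to short motifs that are spelled out after the sequences.
Cxcr6 (chr9:123806227-123806526, plus strand): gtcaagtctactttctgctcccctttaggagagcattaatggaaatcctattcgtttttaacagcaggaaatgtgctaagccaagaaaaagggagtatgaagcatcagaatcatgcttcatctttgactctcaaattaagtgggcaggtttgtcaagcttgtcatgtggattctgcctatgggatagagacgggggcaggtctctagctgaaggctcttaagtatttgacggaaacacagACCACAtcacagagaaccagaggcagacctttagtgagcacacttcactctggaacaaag
Xcr1 (chr9:123861980-123862279, minus strand): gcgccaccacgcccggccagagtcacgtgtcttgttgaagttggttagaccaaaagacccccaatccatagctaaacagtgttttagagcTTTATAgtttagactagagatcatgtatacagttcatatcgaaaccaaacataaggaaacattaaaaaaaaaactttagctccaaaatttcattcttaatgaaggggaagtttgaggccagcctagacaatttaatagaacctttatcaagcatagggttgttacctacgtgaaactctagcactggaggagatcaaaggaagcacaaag
Ccr1 (chr9:123968643-123968942, minus strand): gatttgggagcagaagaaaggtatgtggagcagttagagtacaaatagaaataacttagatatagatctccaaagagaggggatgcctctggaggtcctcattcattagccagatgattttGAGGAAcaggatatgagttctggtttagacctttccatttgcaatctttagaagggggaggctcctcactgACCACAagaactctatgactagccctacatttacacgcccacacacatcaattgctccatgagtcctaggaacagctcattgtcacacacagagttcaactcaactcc
Ccr2 (chr9:124101933-124102232, plus strand): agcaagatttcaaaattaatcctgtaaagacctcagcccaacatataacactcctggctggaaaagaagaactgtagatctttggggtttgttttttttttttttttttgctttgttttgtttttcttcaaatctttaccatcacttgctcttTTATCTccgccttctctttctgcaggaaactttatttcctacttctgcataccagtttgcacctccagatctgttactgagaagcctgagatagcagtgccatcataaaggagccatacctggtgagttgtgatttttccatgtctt

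The letters searched for RUNX were TGTGGT. They stood in the Cxcr6 promoter at position -10 and in the Ccr1 promoter at position -58, both on the strand opposite to the gene, with the start as position 0. The Ccr1 promoter also held the PU.1 letters GAGGAA at position -129. Of all 32817 RefSeq promoters of this length, 16.8% held the RUNX letters and 28.3% the PU.1 letters. The Xcr1 promoter held the TATA letters TATAAA, found in 13.6% of all promoters, on the opposite strand at position -160. The Ccr2 promoter held the GATA letters AGATAA, found in 11.2%, on the opposite strand at position -97. Ccr3 held PU.1, AP-1 (TGANTCA, in 7.81% of all promoters) and GATA letters, and Ccr9 none of the 7 motifs searched. No member held the C/EBP letters TTGCNNAA, present in 10.8% of promoters, or the STAT letters TTCNNNGAA, present in 8.29%. The 6 promoters held 1 to 6 CG dinucleotides each against a median of 7 over all promoters. Of all promoters 47.9% held no more than the highest member, Xcr1. These matches describe letters only, and no binding was measured.

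Ccr2 led the 6 genes in WT monocytes and WT SPMs, and Cxcr6, Ccr1 and Ccr2 lay close together in WT lung macrophages. Levels of different genes are compared per length, as RPKM (CPM per kb of the gene model). In WT monocytes the median RPKM was 110 for Ccr2, 27.4 for Ccr1 and between 0.0555 and 0.275 for the other 4, where neighbours in the order overlapped. WT SPMs kept this order, with a median RPKM of 108 for Ccr2, 58.9 for Ccr1 and 3.42 for Cxcr6, each above the next without overlap. In WT lung macrophages Cxcr6 (9.0), Ccr1 (8.18) and Ccr2 (4.51) had median RPKM values whose ranges overlapped, and Xcr1 (0.700), Ccr3 (0.548) and Ccr9 (0.138) lay below them. The summed RPKM of the 6 genes had a median of 138 in WT monocytes, 173 in WT SPMs and 22.1 in WT lung macrophages. In ACKR2-/- monocytes and ACKR2-/- SPMs the ranges of Ccr2 and Ccr1 overlapped, with medians of 90.2 and 60.5 RPKM in monocytes and of 59.9 and 50.3 RPKM in SPMs.

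The make-up of the summed RPKM is plotted for every sample. Ccr2 took 74.4 to 80.5% of the summed RPKM in WT monocytes and 42.4 to 68.3% in ACKR2-/- monocytes, while Ccr1 took 19.3 to 25.0% and 28.7 to 55.1%. Neither pair of ranges overlapped. In SPMs the Ccr2 share ran from 57.2 to 90.6% in WT and from 48.9 to 53.5% in ACKR2-/- samples. Cxcr6 reached a share of 9.84 to 42.3% in WT and 23.0 to 50.1% in ACKR2-/- lung macrophages, above its share of at most 6.03% in any monocyte or SPM sample.

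**Figure D1:**
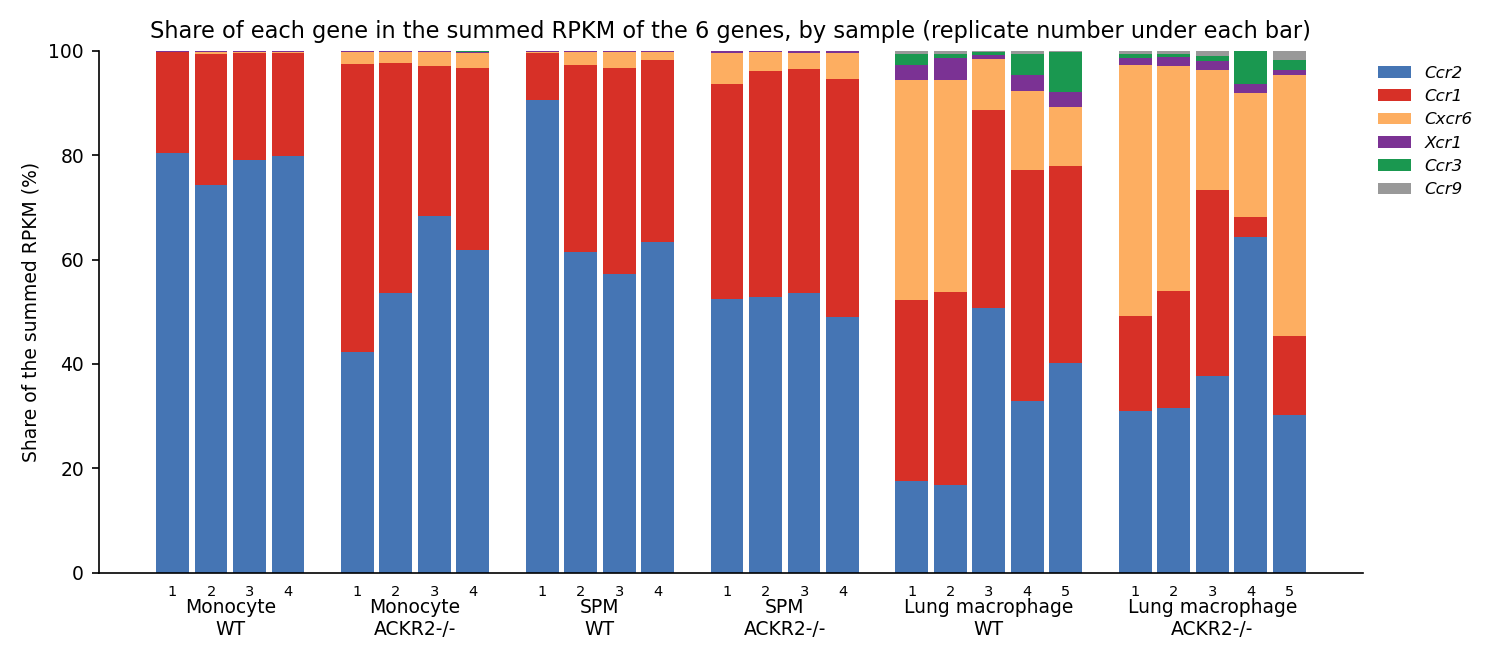
Share of each gene in the summed RPKM of the 6 receptor genes (vertical axis, percent), 1 bar per sample with the replicate number beneath, grouped by cell type and genotype. Ccr2 and Ccr1 fill nearly all of every monocyte and SPM bar, and Cxcr6 takes 9.84 to 50.1% of the lung bars.

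In ACKR2-/- monocytes the transcripts of Cxcr6 and Ccr1 were higher than in WT monocytes, by 14.2-fold and 2.31-fold. Of the 5 members with enough reads to be tested, these 2 passed both thresholds, an adjusted p under 0.05 with a log2 fold change past 0.5 in either direction, where 1.27% of all 13246 genes tested were called. Xcr1, Ccr9 and Ccr2 did not pass, and Ccr3 was too low to test. The median log2 fold change was 1.21 over the 5 members and 0.00 over all genes. Cxcr6, Ccr1 and Xcr1 were the 3 of 6 members whose genotypes did not overlap, where 10.2% of all genes tested did not. In bulk RNA more cells of a type and more RNA per cell cannot be told apart, here and in every comparison that follows.

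Ccr1 had 84.1, 70.9, 87.9 and 69.9 CPM in the 4 WT monocyte samples. In the ACKR2-/- monocyte samples it had 226, 155, 161 and 181 CPM. Every ACKR2-/- sample lay above every WT sample. WT monocytes averaged 78.2 ± 9.13 CPM and ACKR2-/- monocytes 181 ± 31.8 CPM (SD, n = 4 each), which is a log2 fold change of 1.21 (SE 0.15, the standard error, with a Benjamini-Hochberg adjusted p = 0.00129 in edgeR's quasi-likelihood fit). The call held in 7 of 7 other settings and with each of the 8 samples left out, where the log2 fold change ran from 1.09 to 1.29. Among those settings, the adjusted p with no fold threshold uses the same fit and could not undo a call. Markers of plasmacytoid dendritic cells were also higher in ACKR2-/- monocytes. Their summed level was 386, 241, 242 and 278 CPM in ACKR2-/- replicates 1 to 4, the same order of samples as that of Ccr1. In WT replicates 1 to 4 it was 201, 180, 221 and 223 CPM, and there replicate 4 had the highest sum and the lowest Ccr1. All 8 markers had positive log2 fold changes, with a median of 2.14. Of the 8, 3 were called, where 1.27% of all genes tested were. The 8 neutrophil markers had negative log2 fold changes, with 0 called by edgeR, and summed to 38219 to 88054 CPM in WT and 12469 to 56318 CPM in ACKR2-/- monocytes. The part of these cells in the Ccr1 result was not tested.

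Ccr2 did not pass the test. It had 839, 503, 808 and 677 CPM in WT monocytes and 414, 450, 918 and 769 CPM in ACKR2-/- monocytes. Among the ACKR2-/- samples 1 lay above the WT range, 1 within it and 2 below it. Its log2 fold change was -0.15 (SE 0.26, edgeR quasi-likelihood adjusted p = 0.805). The relation between Ccr1 and Ccr2, looked at after their values were seen and therefore not tested, needs no scaling between samples. For every 100 reads on Ccr2 there were 10.0, 14.1, 10.9 and 10.3 reads on Ccr1 in WT monocytes and 54.5, 34.5, 17.6 and 23.6 in ACKR2-/- monocytes. Replicates 1 and 2 of the ACKR2-/- monocytes, which had the lower Ccr2 and the higher ratios, also stood apart from replicates 3 and 4 in marker sums. The monocyte markers summed to 29645 and 45623 CPM in them against 75421 and 65578 CPM, the macrophage markers to 506 and 552 CPM against 1558 and 1078 CPM, and the neutrophil markers to 52776 and 56318 CPM against 12469 and 20180 CPM. The part of these differences in the Ccr2 values was not tested.

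Cxcr6 was near the limit of detection in WT monocytes, with 0.261, 0.871, 0.501 and 0.559 CPM from 4 to 14 reads. ACKR2-/- monocytes had 6.13, 4.78, 10.2 and 10.5 CPM of Cxcr6 from 84 to 197 reads. Even the lowest ACKR2-/- sample lay far above the highest WT sample. With so few WT reads Cxcr6 passed the count filter only through the ACKR2-/- samples, so it could hardly have been called lower. WT averaged 0.548 ± 0.251 CPM and ACKR2-/- 7.90 ± 2.87 CPM of Cxcr6 (SD, n = 4 each), which is a log2 fold change of 3.83 (SE 0.38, edgeR quasi-likelihood adjusted p = 0.000313). It was called in all 7 other settings, including that with no fold threshold, which could not undo a call. With each sample left out it was also called, with a log2 fold change between 3.61 and 4.13.

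Markers of T cells and of NK cells or innate lymphoid cells moved with Cxcr6 in monocytes. Of 10 T cell markers, all tested, 9 were called higher in ACKR2-/- monocytes, and only Cd4, a coreceptor of helper T cells, was not. Of all genes tested 1.27% were called in either direction. Their summed level was 3.89 to 5.47 CPM in WT and 68.8 to 129 CPM in ACKR2-/- monocytes. Of 10 NK cell or innate lymphoid cell markers 4 could be tested and 3 were called higher (Klrd1, Il2rb and Klre1), with sums of 1.67 to 3.08 CPM in WT and 13 to 29.3 CPM in ACKR2-/- monocytes, while the defining NK gene Ncr1 had 0 reads in all 8 samples. Cd3e, a T cell marker, had 0 to 3 reads per WT and 30 to 101 reads per ACKR2-/- monocyte sample, so it was tested only through the latter. Markers that enter in this way can hardly be called lower, so the counts of calls are descriptions. Per 100 CPM of the T cell markers there were 5.71 to 15.9 CPM of Cxcr6 in WT monocytes and 6.04 to 10.1 CPM in ACKR2-/- monocytes, ranges that overlapped. The part of these cells in the Cxcr6 result was not tested. The plot of Cxcr6 against the T cell markers shows both values in every sample.

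**Figure D2:**
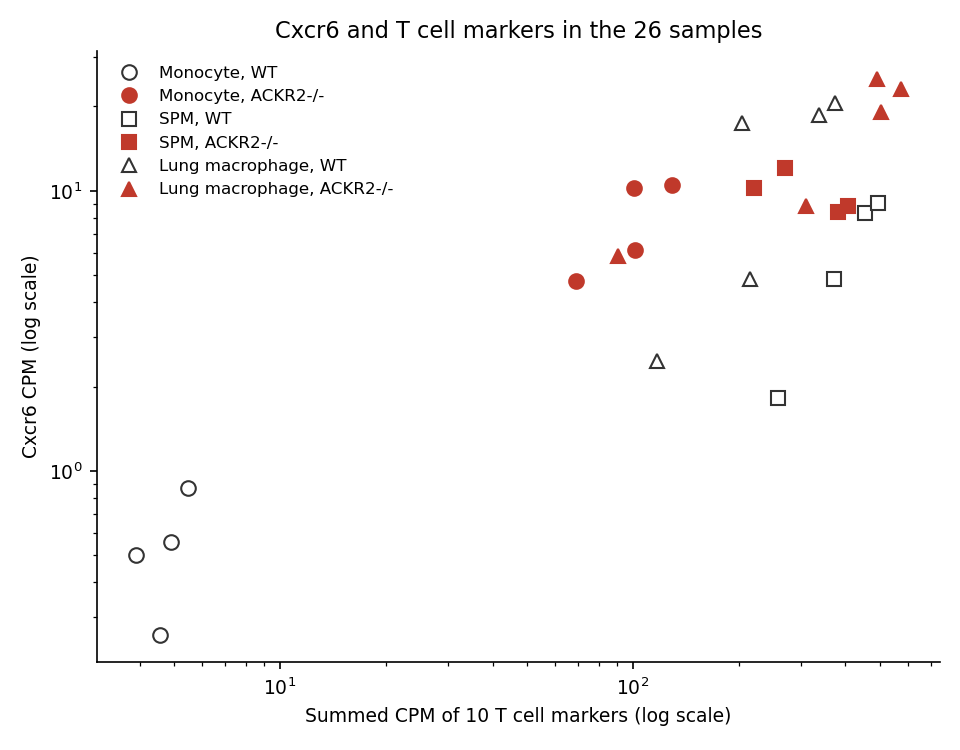
Cxcr6 (vertical axis, CPM, log scale) against the summed CPM of 10 T cell markers (horizontal axis, log scale) in the 26 samples, with the shape giving the cell type and the fill the genotype. The 4 WT monocyte samples sit alone at the lower left, under 1 CPM of Cxcr6 and under 6 CPM of T cell markers, and the 4 ACKR2-/- monocyte samples lie at 4.78 to 10.5 CPM of Cxcr6 and 68.8 to 129 CPM of T cell markers.

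Xcr1 had 0.782, 0.435, 0.946 and 0.559 CPM in WT monocytes. ACKR2-/- monocytes had 1.29, 1.54, 2.0 and 1.91 CPM of Xcr1. The genotypes did not overlap, but these are low levels, from 46 WT and 125 ACKR2-/- reads summed over samples. The log2 fold change of 1.30 (SE 0.35) did not pass, with an edgeR quasi-likelihood adjusted p of 0.0976 and 0.0503 to 0.134 in 7 other settings, of which the lowest is DESeq2. Clec9a, the defining cDC1 marker, had 0.311 to 1.17 CPM in WT and 1.08 to 3.93 CPM in ACKR2-/- monocytes, and none of the 5 cDC1 markers tested was called (summed levels of 666 to 751 CPM in WT and 600 to 983 CPM in ACKR2-/- monocytes). Of the plasmacytoid dendritic cell markers 3 of 8 were called higher, where 1.27% of all genes tested were called in either direction. Siglech had 3.56 to 5.26 CPM in WT and 17.2 to 78.6 CPM in ACKR2-/- monocytes. The part of dendritic cells in the Xcr1 values was not tested.

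Ccr9 had 0.391, 0.808, 1.11 and 1.29 CPM in WT and 1.08, 0.398, 1.37 and 2.44 CPM in ACKR2-/- monocytes, which overlapped (log2 fold change 0.54, SE 0.52, edgeR quasi-likelihood adjusted p = 0.618). Ccr3 had 3, 1, 6 and 3 reads in WT monocytes and 0, 1, 4 and 8 reads in ACKR2-/- monocytes, so no difference was detectable at this depth. A count of 0 allows up to 3 reads, here 0.158 to 0.195 CPM across the 8 samples, and such limits cover counting error only. Prg2, an eosinophil granule gene, ranged from 0.474 to 28.6 CPM over the same samples and did not separate the genotypes. Exact two-sided permutation tests of the mean CPM gave p = 0.0286 for Ccr1, Cxcr6 and Xcr1 in monocytes, the smallest value 4 samples against 4 can give, in a family of 18 such tests over members and cell types.

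**Figure D3:**
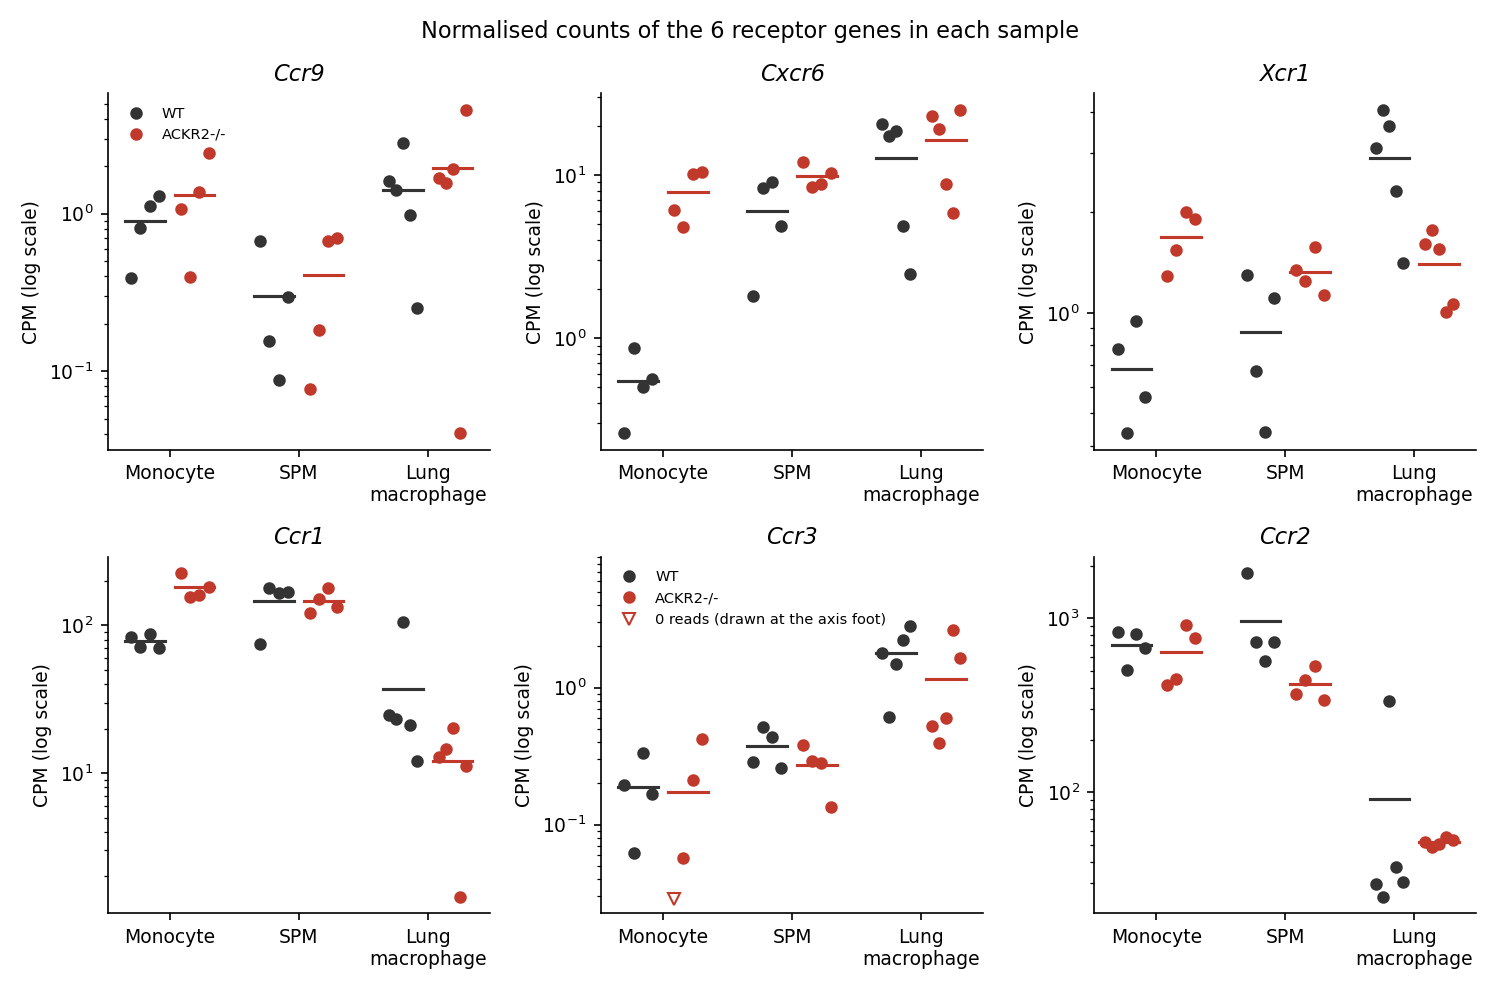
Normalised counts (vertical axes, CPM, log scale) of the 6 genes in each sample, by cell type and genotype, with 1 point per sample, the group mean as a line and an open triangle for 0 reads. Ccr1, Cxcr6 and Xcr1 separate the genotypes in monocytes and Ccr2 does so in SPMs, and no gene does so in lung macrophages.

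In SPMs the member that stood apart was Ccr2, which was lower in every ACKR2-/- sample than in any WT sample but was not called. None of the 4 members tested was called by edgeR or DESeq2, where edgeR called 0.0462% of 12997 genes, and 1 member, Ccr2, had an unadjusted p under 0.05, as did 5.46% of all genes tested. Genotypes did not overlap in 3.4% of all genes tested. Its levels were 1815, 729, 569 and 732 CPM in WT SPMs. ACKR2-/- SPMs had 367, 443, 535 and 342 CPM of Ccr2. WT replicate 1 was far above the others, and the lowest WT and the highest ACKR2-/- sample lay close together. WT SPMs averaged 961 ± 574 CPM and ACKR2-/- SPMs 422 ± 86.9 CPM (SD, n = 4 each), which is a log2 fold change of -1.19 (SE 0.36, edgeR quasi-likelihood adjusted p = 0.788). Without WT replicate 1 the log2 fold change was -0.68 (SE 0.18, edgeR quasi-likelihood adjusted p = 0.607). The exact two-sided permutation test gave p = 0.0286.

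Ccr1 overlapped between the genotypes in SPMs, with 74.6, 179, 165 and 169 CPM in WT and 121, 152, 180 and 133 CPM in ACKR2-/- samples. Its means of 147 ± 48.4 CPM and 147 ± 25.8 CPM (SD, n = 4 each) gave a log2 fold change of -0.00 (SE 0.27, edgeR quasi-likelihood adjusted p = 0.9997). The lowest WT value was that of replicate 1, which had the highest Ccr2. For every 100 reads on Ccr2 there were 4.11, 24.5, 28.9 and 23.0 reads on Ccr1 in WT SPMs and 33.0, 34.3, 33.7 and 39.0 in ACKR2-/- SPMs. As in monocytes, each ACKR2-/- sample had more Ccr1 reads per Ccr2 read than any WT sample. Ccr1 alone, which was higher, already separated the genotypes in monocytes, and Ccr2 alone, which was lower, did so in SPMs. The ratio therefore largely restates these values, and it was not tested. Lung macrophages ran the other way, with 83.1, 92.4, 31.3, 56.4 and 39.3 reads on Ccr1 per 100 on Ccr2 in WT and 24.7, 29.7, 39.8, 2.61 and 21 in ACKR2-/- samples, ranges that overlapped.

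Libraries of both genotypes in SPMs also differed in genes of other cells. Ly6c2 had 380 and 707 CPM in ACKR2-/- replicates 1 and 4 against 16.8 to 56.6 CPM elsewhere, and Marco, a scavenger receptor gene of resident macrophages, had 206 and 311 CPM against 5.85 to 31.6 CPM. Cd209a was lowest in WT replicate 1 at 143 CPM and ACKR2-/- replicate 4 at 192 CPM, against 515 to 1221 CPM elsewhere. Mast cell or basophil markers summed to 336 CPM in WT replicate 1 and to 1264 to 3916 CPM in the other SPM libraries. B cell markers summed to 171 CPM against 343 to 551 CPM. Ccr2 was 1815 CPM in WT replicate 1, 367 and 342 CPM in ACKR2-/- replicates 1 and 4 and 443 and 535 CPM in the other ACKR2-/- libraries. The part of these cells in the Ccr2 values was not tested.

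Cxcr6 was well detected in SPMs of both genotypes, with 1.82, 8.36, 9.06 and 4.84 CPM in WT and 12.1, 8.40, 8.81 and 10.3 CPM in ACKR2-/- samples. The ranges overlapped, and the log2 fold change was 0.73 (SE 0.41, edgeR quasi-likelihood adjusted p = 0.788), or 0.43 (SE 0.23) without WT replicate 1. The T cell markers summed to 258 to 494 CPM in WT and 220 to 407 CPM in ACKR2-/- SPMs, and none was called. Per 100 CPM of these markers there were 0.706 to 1.84 CPM of Cxcr6 in WT and 2.17 to 4.65 CPM in ACKR2-/- SPMs, without overlap. This ratio is a description, and how often other genes would separate in this way was not counted. The 9 NK cell or innate lymphoid cell markers tested all had positive log2 fold changes, with a median of 1.22 and 0 called by edgeR, and all 10 summed to 13.4 to 30.9 CPM in WT and 53.1, 29.3, 27.9 and 93.9 CPM in ACKR2-/- SPMs. The 2 high sums were in ACKR2-/- replicates 1 and 4, which also had the highest Cxcr6, and the part of these cells in the Cxcr6 values was not tested. Xcr1 had 1.29, 0.671, 0.440 and 1.11 CPM in WT and 1.34, 1.25, 1.57 and 1.13 CPM in ACKR2-/- SPMs, which overlapped (log2 fold change 0.55, SE 0.37, edgeR quasi-likelihood adjusted p = 0.788). Ccr3, with 5 to 11 reads per sample, and Ccr9, with 1 to 26, were too low to test. The eosinophil gene Epx had 0 reads in all 8 SPM samples.

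In lung macrophages none of the 6 members passed the test, with an edgeR quasi-likelihood adjusted p of 0.9999 for each. edgeR called 0% of the 16824 genes tested and DESeq2 called 21, none of them a member, and 2 members, Ccr1 and Xcr1, had an unadjusted p under 0.05 with edgeR, as did 2.97% of all genes tested. No member separated the genotypes without overlap, where 0.446% of all genes tested did. Ccr1 had 24.8, 23.2, 105, 21 and 12 CPM in WT and 12.9, 14.5, 20.1, 1.45 and 11.1 CPM in ACKR2-/- samples. The high WT value belonged to replicate 3 and the lowest WT value to the library labelled WT replicate 5. The lowest ACKR2-/- value belonged to replicate 4. The log2 fold change of -1.63 (SE 0.68) became -0.91 (SE 0.56) without the 2 WT libraries. The exact two-sided permutation test of all 10 samples gave p = 0.0397, unadjusted over the 18 tests.

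Ccr2 was nearly even in ACKR2-/- lung macrophages, at 52.2, 48.9, 50.5, 55.5 and 53.0 CPM. WT lung macrophages had 29.9, 25.1, 337, 37.3 and 30.5 CPM. Apart from WT replicate 3, each WT sample lay below each ACKR2-/- sample. The direction of the difference rested on that library, with a log2 fold change of -0.82 (SE 0.69) with all samples, 0.79 without WT replicate 3 and 0.80 (SE 0.19, edgeR quasi-likelihood adjusted p = 0.9999) without both doubted libraries. In replicate 3 the summed macrophage markers were 15047 CPM against 3960 to 5586 CPM in the other WT samples, C1qa had 2749 CPM against 174 to 351 CPM and the B cell gene Cd79a 958 CPM against 110 to 370 CPM. Their part in its Ccr1 and Ccr2 values was not tested.

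Xcr1 had 3.12, 4.05, 3.62, 2.31 and 1.41 CPM in WT and 1.61, 1.77, 1.55, 1.01 and 1.06 CPM in ACKR2-/- lung macrophages. Only the library labelled WT replicate 5 fell within the ACKR2-/- range. The log2 fold change was -1.05 (SE 0.39) with all samples and -1.13 (SE 0.41) without both doubted libraries, with edgeR quasi-likelihood adjusted p of 0.9999 in each, and the exact two-sided permutation test gave p = 0.0317. Clec9a had 1.36 to 2.76 CPM in WT and 0.0402 to 4.92 CPM in ACKR2-/- samples, and 0 of 8 cDC1 markers were called. Of the 8, 7 had negative log2 fold changes, with a median of -0.40 over the list against -0.04 over all genes. Their summed levels were 341 to 704 CPM in WT (median 390) and 391 to 743 CPM in ACKR2-/- samples (median 523), the other direction. The part of dendritic cells in these Xcr1 values was not tested.

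Cxcr6 was read in every lung macrophage sample, with 20.6, 17.4, 18.7, 4.86 and 2.47 CPM in WT and 23.0, 19.1, 8.81, 5.83 and 25.1 CPM in ACKR2-/- lung macrophages. Both genotypes spread widely and overlapped (log2 fold change 0.36, SE 0.58, or 0.11 to 0.61 with single samples left out). The T cell markers summed to 117 to 373 CPM in WT and 90.9 to 576 CPM in ACKR2-/- samples, and the NK cell or innate lymphoid cell markers to 184 to 426 CPM and 386 to 2245 CPM, with no marker called. Ccr3 ranged from 0.608 to 2.82 CPM in WT and from 0.398 to 2.66 CPM in ACKR2-/- samples (log2 fold change -0.62, SE 0.62, or -0.36 without the library labelled WT replicate 5 and -1.19 without ACKR2-/- replicate 4). Ccr9 ranged from 0.252 to 2.79 CPM in WT and from 0.0402 to 4.57 CPM in ACKR2-/- samples (log2 fold change 0.47, SE 0.84). The plot of the genotype differences sets the 3 cell types side by side.

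**Figure D4:**
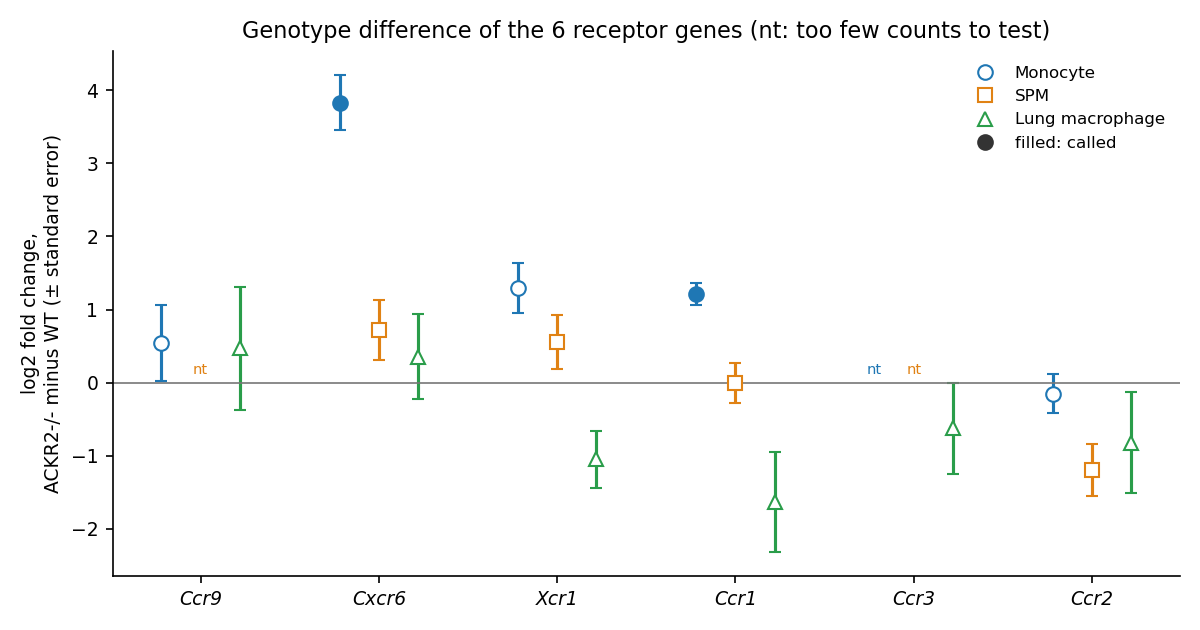
Log2 fold change of ACKR2-/- minus WT (vertical axis) with its SE for each gene, in monocytes (circles), SPMs (squares) and lung macrophages (triangles), where filled symbols are called and nt marks a gene with too few counts to test. The 2 filled symbols are Cxcr6 at 3.83 and Ccr1 at 1.21 in monocytes.

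Whether the genotype difference itself varied between cell types was tested in a joint fit of the 26 samples. No member passed at an adjusted p under 0.05 in edgeR, where 0.253% of 17792 genes differed between SPMs and monocytes, 0.152% between lung macrophages and monocytes and 0.0393% between lung macrophages and SPMs. The closest were lung macrophages against monocytes, where the difference of log2 fold changes was -2.31 (SE 0.53, edgeR quasi-likelihood adjusted p = 0.0778) for Xcr1, -3.46 (SE 0.80, edgeR quasi-likelihood adjusted p = 0.0836) for Cxcr6 and -2.81 (SE 0.70, edgeR quasi-likelihood adjusted p = 0.125) for Ccr1. For Cxcr6 in SPMs against monocytes it was -3.04 (SE 0.84, edgeR quasi-likelihood adjusted p = 0.193). DESeq2 gave adjusted p of 0.002, 0.00477, 0.0171 and 0.0251 for these 4, and all 4 passed there. At an unadjusted p under 0.05 edgeR had 6 of the 18 member contrasts, which also include Ccr1 and Xcr1 between lung macrophages and SPMs. Over all genes the share was 7.46% between SPMs and monocytes, 6.07% between lung macrophages and monocytes and 6.15% between lung macrophages and SPMs. So the calls of Cxcr6 and Ccr1 in monocytes are not shown by edgeR to be particular to monocytes.

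Between WT cell types calls were common among all genes, and the members were no exception. Of 18 member contrasts 12 were called, where edgeR called 41.9% of all genes between SPMs and monocytes, 63.8% between lung macrophages and monocytes and 62.3% between lung macrophages and SPMs. Every member but Ccr9 was called in each of the contrasts with monocytes. Between lung macrophages and SPMs only Ccr1 and Ccr2 were called. Cell type, tissue preparation and count table cannot be told apart in these contrasts. Cxcr6 was higher than in monocytes by a log2 difference of 4.61 in SPMs (edgeR quasi-likelihood adjusted p = 3.72e-06) and of 4.52 in lung macrophages (edgeR quasi-likelihood adjusted p = 1.69e-06). Ccr2 was lower in lung macrophages than in monocytes by a log2 difference of -2.99 and than in SPMs by -4.57, and Ccr1 lower than in SPMs by -3.20. Xcr1 (2.07) and Ccr3 (3.17) were higher in lung macrophages than in monocytes. These 7 calls also held with library sizes unscaled by TMM factors.

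The other contrasts depended on the scaling. Between SPMs and monocytes, log2 differences of 2.10 for Ccr1, 1.58 for Ccr2, 2.09 for Ccr3 and 1.54 for Xcr1 were called with TMM, and 0.86, 0.53, 0.91 and 0.42 with unscaled library sizes were not. The median of all genes moved from 0.00 to -0.96 between these scalings. Ccr1 was called lower in lung macrophages than in monocytes by -1.11 with TMM (edgeR quasi-likelihood adjusted p = 0.0481), and the call held in only 4 of the 26 fits that left out a sample. Between lung macrophages and SPMs, Cxcr6 differed by -0.10 with TMM and by 1.24 with unscaled library sizes, where the median of all genes moved from 0.41 to 1.62. Ccr9 was called in no WT contrast with TMM.

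The ligands of the 6 receptors were measured in the same cells. In monocytes 10 of 14 ligand genes could be tested and 2 were called, both higher in ACKR2-/- samples, where 1.27% of all genes tested were called. Ccl5, a ligand of Ccr1 also made by T cells and NK cells, rose from 1.78 ± 0.771 CPM to 13.2 ± 4.44 CPM (SD, n = 4 each), a log2 fold change of 2.90 (SE 0.33, edgeR quasi-likelihood adjusted p = 0.00102). Xcl1, the ligand of Xcr1 and a product of NK cells and activated T cells, rose from 0.0761 ± 0.118 CPM to 2.03 ± 1.24 CPM (SD, n = 4 each) with an edgeR quasi-likelihood adjusted p of 0.0132. At its WT level Xcl1 passed the count filter only through the ACKR2-/- samples, so it could hardly have been called lower. The median log2 fold change of the ligands tested was -0.11. Cxcl16, the ligand of Cxcr6, was at 1.24 ± 0.486 CPM in WT and 1.18 ± 0.238 CPM in ACKR2-/- monocytes (SD, n = 4 each).

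In SPMs 12 of the 14 ligands could be tested and 0 were called by edgeR. Ccl6, a ligand of Ccr1, had a mean of 26569 ± 5574 CPM in WT and 20526 ± 3391 CPM in ACKR2-/- SPMs (SD, n = 4 each), and Ccl9, another, 4292 ± 638 CPM and 3306 ± 449 CPM. Ccl24, an eotaxin that binds Ccr3, had 139 to 185 CPM in WT and 49.5 to 126 CPM in ACKR2-/- SPMs, ranges that did not overlap, with a log2 fold change of -0.89 (SE 0.30). Xcl1 had 0.431 to 1.40 CPM in WT and 2.05 to 9.56 CPM in ACKR2-/- SPMs, also without overlap, with a log2 fold change of 2.13 (SE 0.55). Both had an edgeR quasi-likelihood adjusted p of 0.788, and genotypes did not overlap in 3.4% of all genes tested in SPMs. Ccl8 (2.38) and Ccl4 (2.33) had the largest log2 fold changes of the list, with ranges that overlapped, and the list's median was 0.60 against -0.05 over all genes.

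In lung macrophages all 14 ligands were tested and 0 called by edgeR. Ccl12 (-2.73) and Ccl8 (-2.11) had the largest log2 fold changes and overlapped between the genotypes. Ccl12, a Ccr2 ligand, had 9.13 to 235 CPM in WT and 3.62 to 18.1 CPM in ACKR2-/- samples. Cxcl16 had 95.9 to 1131 CPM in WT and 37.6 to 110 CPM in ACKR2-/- lung macrophages. Ccl5 had 70.4 to 151 CPM in WT and 118 to 796 CPM in ACKR2-/- samples, with a log2 fold change of 2.02 (SE 0.46, edgeR quasi-likelihood adjusted p = 0.9999). Ccl11, an eotaxin, had 0 reads in every monocyte and SPM sample but 0 to 14.3 CPM in lung macrophages.

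Among 17 other chemokine receptors, Ackr2 included, 7 could be tested in monocytes. Of these 2 were called higher in ACKR2-/- samples, where 1.27% of all genes tested were called in either direction. Ccr7, which guides T cells and dendritic cells to lymph nodes, rose from 0.310 ± 0.216 CPM to 2.78 ± 1.13 CPM (SD, n = 4 each), a log2 fold change of 3.17 (SE 0.49, edgeR quasi-likelihood adjusted p = 0.00726). Cxcr3, a receptor of effector T cells and plasmacytoid dendritic cells, rose from 4.02 ± 0.451 CPM to 10.2 ± 3.91 CPM (SD, n = 4 each), with an edgeR quasi-likelihood adjusted p of 0.0364. At its WT level Ccr7 passed the count filter only through the ACKR2-/- samples, so it could hardly have been called lower. The other 5 receptors tested had negative log2 fold changes, none called, and the list's median log2 fold change was -0.45. In SPMs 0 of 8 and in lung macrophages 0 of 14 were called by edgeR. Cxcr4, which holds blood cells in the bone marrow, had the largest log2 fold change of the list in SPMs, -1.51 (SE 0.54), from 0.431 to 1.96 CPM in WT and 0.192 to 0.754 CPM in ACKR2-/- samples. In lung macrophages that of Ccr6, the receptor for Ccl20, was -1.72 (SE 0.78), the largest after Ackr2, from 1.26 to 13.6 CPM in WT and 0.362 to 3.30 CPM in ACKR2-/- samples. Both overlapped between the genotypes.

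Genes of signalling and desensitization below chemokine receptors, such as the G protein subunit Gnai2, the arrestins and the guanine exchange factor Dock2, had enough reads to be tested throughout. Of 23 tested in each cell type 0 were called by edgeR, with 4 higher and 19 lower in ACKR2-/- monocytes (median log2 fold change -0.17), 10 higher and 13 lower in SPMs (-0.14) and 11 higher and 12 lower in lung macrophages (-0.02).

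The 6 genes were set beside the other genes between the starts of Ackr2 and Ccr2. In monocytes 23 of 78 such genes could be tested and 1 was called, Sacm1l, a phosphoinositide phosphatase that fell from 12.4 ± 2.34 CPM to 5.83 ± 1.43 CPM (SD, n = 4 each; log2 fold change -1.09, SE 0.21, edgeR quasi-likelihood adjusted p = 0.0332). The median log2 fold change of these neighbours was -0.10 in monocytes, -0.13 in SPMs over 21 tested and 0.00 in lung macrophages over 29 tested, with none called in the latter cell types. Fyco1, whose span holds Cxcr6, had a log2 fold change of 0.19 (SE 0.18) in monocytes. Lztfl1, within the span of the Ccr9 model, had 0.29 (SE 0.15). Genotype cannot be told apart here from differences in sequence that the colonies may carry on this chromosome, which the counts do not show.

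**Figure D5:**
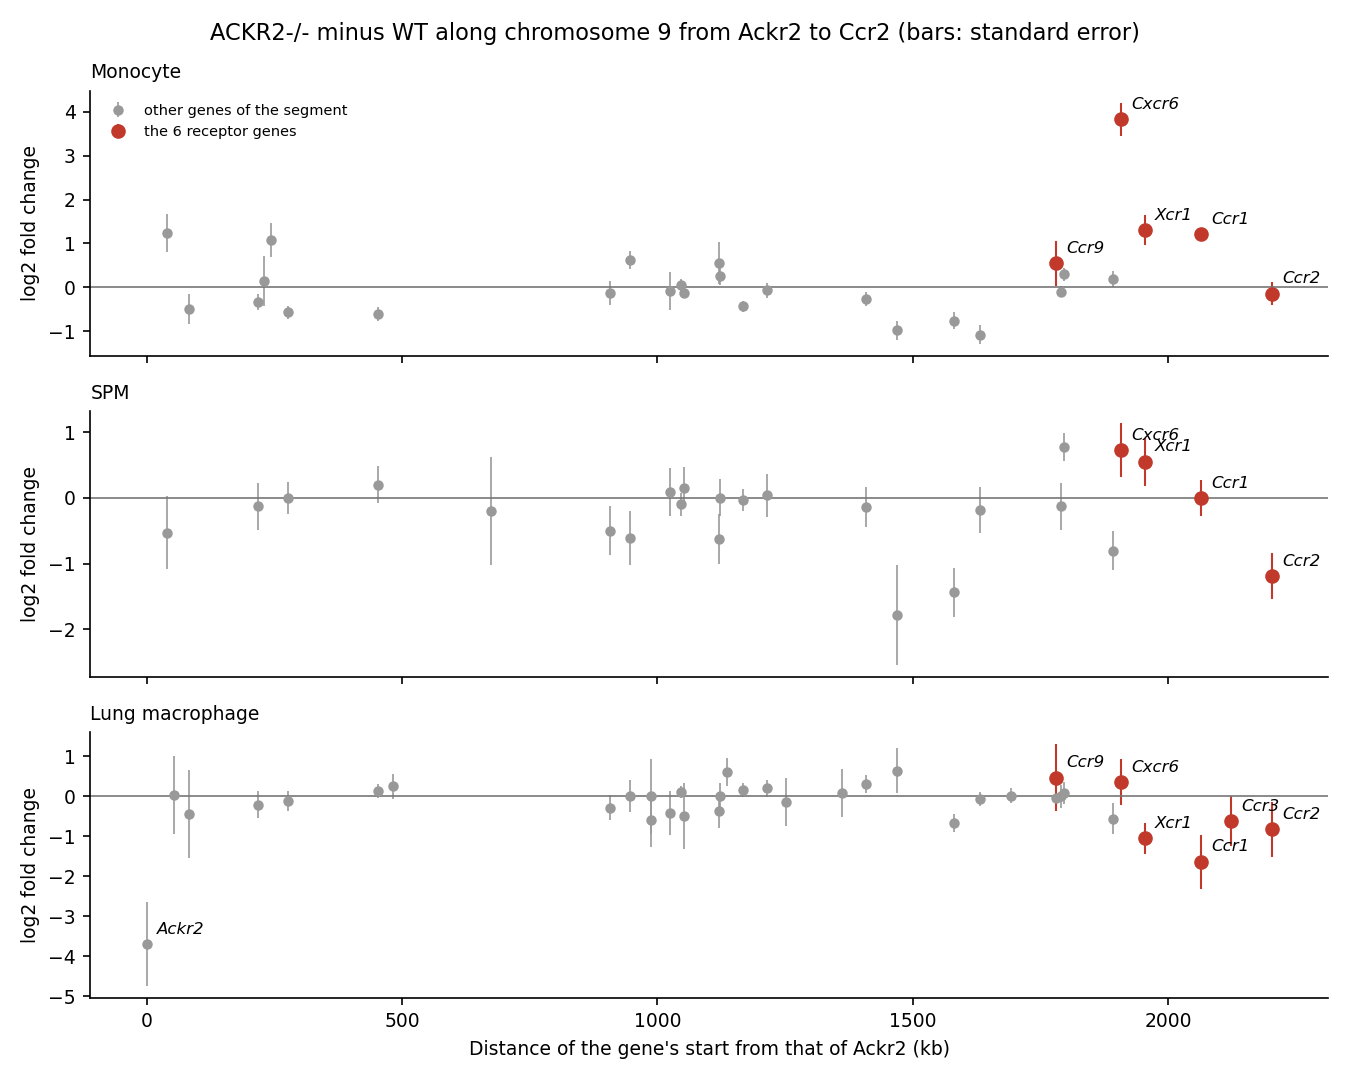
Log2 fold change of ACKR2-/- minus WT (vertical axes, with standard errors) of every tested gene from Ackr2 to Ccr2, against the distance of its lower coordinate from that of Ackr2 (horizontal axis, kb), for monocytes, SPMs and lung macrophages from top to bottom, with the 6 receptor genes in red. In monocytes Cxcr6 at 3.83 stands above all its neighbours, and in lung macrophages Ackr2 itself, at -3.69, is the lowest.

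Within groups the 6 genes did not vary as a block. Over the 26 samples, as deviations of log2 CPM from the mean of each cell type and genotype, Pearson's r between members ran from -0.44 (Ccr1 with Ccr3) to 0.58 (Ccr1 with Ccr9). These samples share libraries and the few that stand apart, so the values are descriptions. The genes most like Ccr1, among 10173 of at least 1 CPM in every cell type, were H2-DMb2 (r = 0.91), H2-Ob (0.90) and Tyms (0.89), those most like Ccr2 were Tnfrsf11a (0.91), Ppp1r21 (0.91) and Tgfbi (0.90), and those most like Cxcr6 were Amacr (0.91), Trac (0.86) and Snx7 (0.85). Trac is the constant gene of the T cell receptor alpha chain. Xcr1 was most like Gas2l1 (0.86), Ccr9 most like Ptms (0.79) and Ccr3 most like D1Ertd622e (0.71), lower values in genes with few reads.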

How the data were processed

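RNA of sorted monocytes, SPMs and MHCII negative lung macrophages was amplified as poly-A cDNA and sequenced as paired-end reads. The values deposited are unnormalized read counts for each gene, with 1 table per cell type. The submitters' processing notes name mm10, HISAT2 2.0.5, featureCounts 1.5.0-p3 and DESeq2, with no roles. The lung table ends in 5 summary lines of the kind HTSeq writes, 56.3% of its counts, which were left out, so its counter may differ. Reads shared by paralogs may be split in ways the tables do not show.

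From the deposited counts, genotypes were compared per cell type with the quasi-likelihood test of edgeR 4.0.16 in R 4.3.3, after filterByExpr (minimum count 10, minimum total 15) and TMM scaling, with Benjamini-Hochberg adjustment over all genes tested. Calls needed an adjusted p below 0.05 together with a log2 fold change past 0.5 in either direction, the study's thresholds. CPM are scaled by TMM on tested genes. RPKM divides CPM by the gene length deposited with the monocyte and SPM counts, also for lung macrophages. Shared exonic bases were taken from GENCODE M21. Cell types were compared in a joint fit of 26 samples over 50104 shared genes. Exact permutation tests used SciPy 1.17.1. Replicates differed beyond sampling noise in every pair (chi-square of at least 11.6 per degree of freedom), 0 pairs were identical and 0 sample columns were left unmapped. The fits were tested on simulated data. Without molecular identifiers PCR copies of reads are not told apart.

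Genes named are the 6 members, Ackr2 and, of each list, every called gene or else up to 2 with the largest change, ligands with their levels, and the 3 genes most like each member. Ccl5 and Cxcl16 in the lung, and Fyco1 and Lztfl1, were named after their values were seen. The members, lists and tests were chosen with earlier results of these data known. A further gene fixed for naming is not reported here. The other settings tried were RLE factors, DESeq2 1.42.0, the robust fit, the adjusted p with no fold threshold, no filter, a filter on CPM at 1, the replicate number as a block, WT samples only and each sample left out. Leaving out both doubted lung libraries and unscaled library sizes were added after the data were seen.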

Additional observations from a re-analysis of the deposited data

Results flagged for a closer look

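Of 36 groups of samples (6 genes in 6 groups), 4 held a sample whose gap to its nearest neighbour, as a share of the group's range, exceeded Dixon's 95% critical value. Chance gives about 1 in 20 such groups. All 4 were values of Ccr1 or Ccr2, in 2 libraries. In WT SPM replicate 1, Ccr1 was low at 74.6 CPM (gap 0.866 of the range) and Ccr2 high at 1815 CPM (0.869). In WT lung macrophage replicate 3, Ccr1 was high at 105 CPM (0.862) and Ccr2 high at 337 CPM (0.961).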

How the results depend on the processing

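Cxcr6 and Ccr1 stayed called in monocytes, and no member was called in SPMs or lung macrophages, under every alternative run for those comparisons. No member's genotype difference varied between cell types in edgeR (0 of 18 contrasts), but 4 did with DESeq2, 1 with no filter on low counts and 1 without both doubted lung libraries (Cxcr6 in the last 2), and with single samples left out the count ran from 0 to 3, the 3 being without the library labelled WT lung replicate 5. Between WT cell types 9 to 12 of 18 contrasts were called over all settings, 10 with WT samples only and 11 with unscaled library sizes. Values near 0 changed sign without a call. Ccr2 in monocytes was -0.37 to 0.011 with single samples left out. Ccr1 in SPMs was 0.028 with no filter, 0.061 with the replicate number as a block and -0.22 to 0.10 with single samples left out. Ccr2 in the lung was 0.21 with the block, 0.80 without both doubted libraries and -1.06 to 0.79 with single samples left out. Ccr9 in the lung was -0.033 with the block and -0.11 to 0.89 with single samples left out. Replicate numbers did not pair the samples (correlations of same-numbered deviations from -0.118 to 0.643, not all over 0.1, and 2 of 13 numbers correlated best with their own), and the block changed no call of a member. Over all genes, the calls of 168 in monocytes, 6 in SPMs and 0 in lung macrophages became 540, 30 and 21 with DESeq2, and 346, 52 and 0 with no filter, and ran from 76 (without WT replicate 1) to 413 (without ACKR2-/- replicate 3) in monocytes and from 3 to 8 in SPMs with single samples left out. DESeq2 gave no p for Ccr2 in the lung. Depth limits Ccr3 in monocytes and SPMs and Ccr9 in SPMs, where DESeq2 and no filter gave values without a call.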
